A study of Rattus norvegicus with 6 samples.

Results

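The genes described here take up long-chain fatty acids or carry them inside the cell: Cd36, Slc27a2, Fabp1, Fabp5, Fabp7 and Scp2. Every probe set on the Affymetrix Rat Genome U34A array whose annotated symbol is one of these 6 was taken, and for Cd36 also those that list it beside a second symbol. That gave 13 of 8799 probe sets, 7 for Cd36, 2 for Scp2 and 1 for each of the others. The 6 genes were selected on earlier results that included their NASH minus Control differences in these arrays, so those differences are given as a description, without a p-value. Liver RNA came from male Sprague Dawley rats that received liquid diets by total enteral nutrition, a tube feeding that fixes intake, for 3 weeks. The 3 Control arrays are from rats on 5% corn oil with a daily energy supply of 187 kcal for each kg of metabolic body mass, and the 3 NASH arrays from rats on 70% corn oil at 220 kcal. NASH stands for nonalcoholic steatohepatitis. It is the label of a diet group here, and fat content and energy supply differ together between the groups.

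Long-chain fatty acids enter a hepatocyte by diffusion and with the help of membrane proteins such as CD36, and are trapped when an acyl-CoA synthetase joins them to coenzyme A. Inside the cell, small fatty acid binding proteins hold them in solution and pass them to mitochondria, peroxisomes, the endoplasmic reticulum and nuclear receptors. Several of these genes are known targets of PPAR alpha, a receptor that fatty acids activate, and Cd36 in liver is also known as a target of PPAR gamma, LXR and PXR.

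Because PPAR alpha and its partner RXR bind a direct repeat of AGGTCA with any 1 base between the copies, the promoters of the members were searched for that repeat on both strands. The window ran from 250 bases before to 50 bases after the gene start in RefSeq, and up to 2 mismatches in the 12 fixed letters were allowed. Promoter sequences from RefSeq were used for 5 of the 6 genes, and that of Fabp5 was not analysed here. Fabp1 held a match with 1 mismatch, 77 to 65 bases before its start, and Slc27a2 one with 2 mismatches, 76 to 64 bases before its start, both on the minus strand. Of all 33469 promoters of this length, 0.439% held a match with at most 1 mismatch and 3.77% one with at most 2. The promoters of Cd36, Fabp7 and Scp2 held none at this limit. That of Cd36l1, which 5 of the Cd36 probe sets may also read, held a match with 2 mismatches, 209 to 197 bases before its start and on the minus strand. The 250 bases before the start are shown for Fabp1 and Slc27a2, which held a match, and for Cd36, the gene with the largest differences of the 6, with the match in capitals where there is one.
Fabp1, GRCr8, chr4:104749090-104749339, plus strand: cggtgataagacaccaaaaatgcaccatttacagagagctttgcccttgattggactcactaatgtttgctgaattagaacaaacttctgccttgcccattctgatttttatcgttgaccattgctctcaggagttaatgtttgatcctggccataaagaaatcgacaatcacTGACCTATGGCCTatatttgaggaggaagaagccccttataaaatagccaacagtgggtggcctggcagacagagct
Slc27a2, GRCr8, chr3:134257851-134258100, plus strand: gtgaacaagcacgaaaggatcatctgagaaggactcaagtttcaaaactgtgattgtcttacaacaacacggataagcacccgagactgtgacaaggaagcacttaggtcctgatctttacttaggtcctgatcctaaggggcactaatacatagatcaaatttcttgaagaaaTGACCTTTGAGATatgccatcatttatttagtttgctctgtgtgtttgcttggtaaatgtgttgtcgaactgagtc
Cd36, GRCr8, chr4:18246332-18246581, plus strand: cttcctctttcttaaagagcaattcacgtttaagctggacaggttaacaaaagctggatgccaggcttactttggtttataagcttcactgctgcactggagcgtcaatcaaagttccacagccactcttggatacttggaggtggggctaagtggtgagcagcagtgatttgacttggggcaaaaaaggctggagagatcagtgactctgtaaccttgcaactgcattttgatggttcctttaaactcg
These matches describe letters and are no evidence that a receptor binds there.

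Signals are those of the MAS5 algorithm, 1 per probe set and array on a linear scale, and their 2% trimmed means ranged from 73.6 to 117 over the 6 arrays. Differences were therefore taken after quantile normalization, as log2 of the signal plus an offset of 2.21, and are NASH minus Control with a standard error from limma (n = 3 arrays per group). Nothing in the sources used here says that the arrays came from separate animals, so the errors cover only the scatter of these samples, part or all of which could be technical. Of 10 hepatocyte markers, 9 were measured, and their summed deposited signal ran from 34145 to 47496 in Control and from 28477 to 37433 in NASH. Such sums are not scaled between arrays, and Control 1 had the highest and NASH 3 the lowest of both this sum and the trimmed mean. After normalization 4 of the 9 were higher and 5 lower in NASH, with a median difference of −0.06. One array stood apart in the transcripts of other tissues. In NASH 2 the summed deposited signal of 7 white fat markers was 2208, against 426 to 552 in the other arrays. For 4 brown fat markers it was 1816, against 48.2 to 114, and for 8 skeletal muscle markers 2239, against 77.4 to 148. Fat and muscle are known to make much Cd36, so values without NASH 2 stand beside the results. Control 2 had the highest sum of 6 clock genes, listed here as clock output, 431 against 155 to 234. It was the highest array for 4 of the 6. Dbp read 127 there against 4.33 to 10.1 in the other arrays. Bmal1 in the same list went the other way, at 2.90 in Control 2 against 35.5 to 83.7. The sum therefore mixes opposite directions and is no measure of the time of day.

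**Figure D1:**
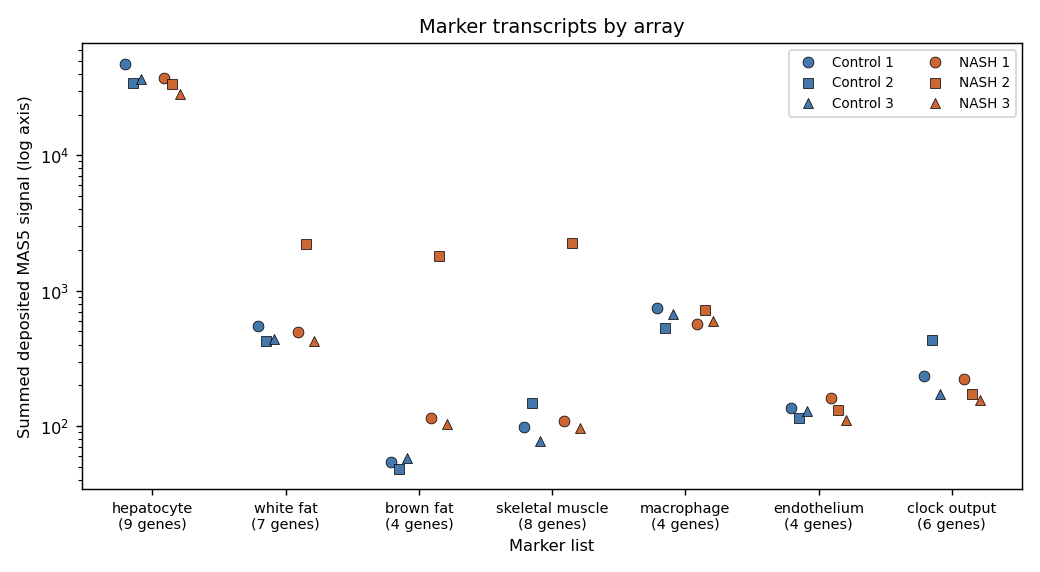
Summed deposited MAS5 signal (log axis) of each marker list in each array, with Control in blue, NASH in orange and the symbol giving the replicate number. NASH 2 lies above the other arrays in white fat (2208), brown fat (1816) and skeletal muscle (2239) markers, and Control 2 in clock output genes (431).

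Cd36, a scavenger receptor and fatty acid transporter of the cell surface, was higher in every NASH array than in every Control array by all 7 of its probe sets. The differences ran from 1.32 to 2.98 on the log2 scale, with a median of 2.16, or a median of 4.46-fold. The lowest fold was 2.49. The highest, 7.88 for AB005743_g_at, has Control signals near the offset and depends on it. Among the 5 probe sets that also list Cd36l1 the highest was 6.07, for rc_AA799326_s_at, which also varied with the offset. In liver tissue, more RNA per cell and more cells that make Cd36 cannot be told apart. The array annotation gives Cd36 alone for 2 probe sets and Cd36 with Cd36l1, its neighbour on chromosome 4, for the other 5, so for those 5 the share of each gene is unknown.

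The pair that names Cd36 alone had the lowest signals of the 7 in Control livers. AB005743_g_at read 4.98, 4.82 and 1.71 in Control 1, 2 and 3, and 42.9, 58.8 and 23.1 in NASH 1, 2 and 3, as deposited signals. Its Control values lay near the offset, and all NASH values were well above them. After normalization the means were 2.49 ± 0.34 and 5.47 ± 0.40 on the log2 scale (SD, n = 3 each), a difference of 2.98 ± 0.35. AB005743_at read 14.9, 18.6 and 6.85 in Control and 46.5, 50.2 and 27.5 in NASH, with NASH 3 the lowest of its group and above all of Control. Its difference was smaller, 1.64 ± 0.29 or 3.12-fold. Both passed the filter on dim probe sets, a mean log2 above 3.94, only because their NASH values were high, since their Control means of 2.49 and 3.86 lay under it. The size of both depends on the offset. AB005743_g_at differed by 3.30 with an offset of 1 and 1.58 with an offset of 16, and AB005743_at by 1.73 and 1.05.

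The 5 probe sets shared with Cd36l1 had higher mean signals in Control than AB005743_g_at and AB005743_at. AF072411_at read 52.0, 30.5 and 35.6 in Control and 188, 220 and 143 in NASH, a difference of 2.35 ± 0.23 or 5.09-fold. AF072411_g_at, made to the same sequence, read 112, 53.1 and 89.9 in Control and 341, 342 and 254 in NASH, a difference of 2.07 ± 0.27. In both, the Control arrays were spread more widely than the NASH arrays on the log2 scale, with SDs of 0.31 and 0.48 against 0.21 and 0.14. rc_AA799326_s_at read 44.5, 18.7 and 9.89 in Control and 128, 174 and 83.4 in NASH (difference 2.60 ± 0.41). Its difference was 2.68 with an offset of 1 and 2.01 with an offset of 16, and that of AF072411_at 2.39 and 2.00. rc_AA925752_at read 81.6, 41.4 and 74.2 in Control and 252, 332 and 199 in NASH (difference 2.16 ± 0.30). Control 2 was the lowest Control array for AF072411_at, AF072411_g_at, rc_AA925752_at and rc_AA946368_at. The smallest difference was that of rc_AA946368_at, 1.32 ± 0.34, which read 81.2, 55.6 and 139 in Control and 239, 177 and 171 in NASH. After normalization its highest Control array, Control 3, and its lowest NASH array, NASH 2, were 0.37 apart on the log2 scale, against a gap of 2.26 for AB005743_g_at.

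**Figure D2:**
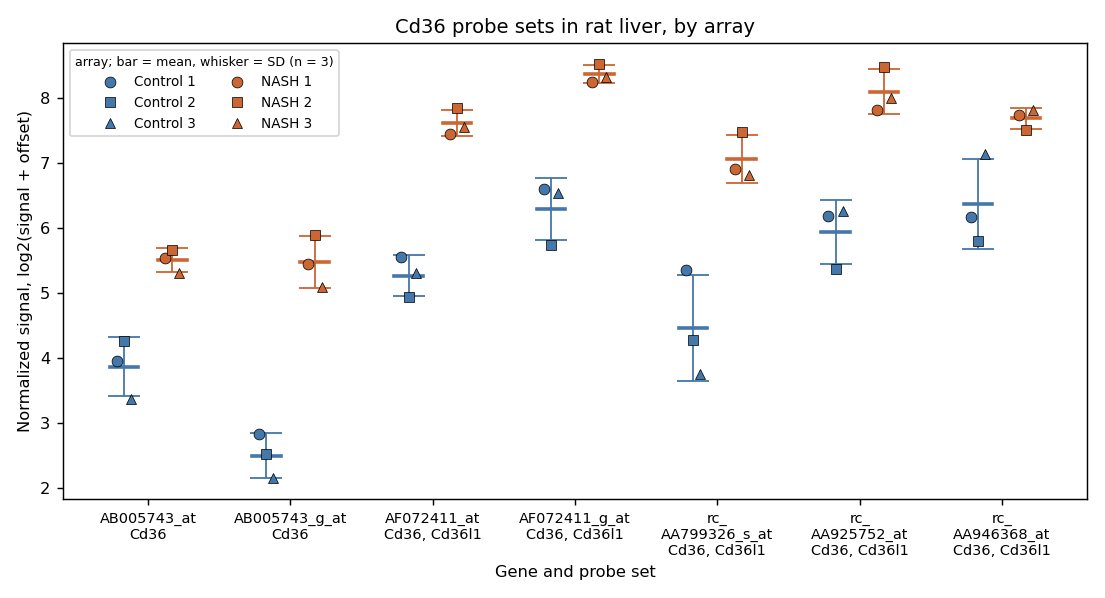
Normalized signal, log2(signal + offset), of the 7 Cd36 probe sets in each array, with group means and SDs (n = 3). In each probe set the 3 NASH arrays (orange) lie above the 3 Control arrays (blue), by a gap of 0.37 in rc_AA946368_at and of 2.26 in AB005743_g_at.

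NASH 2, where fat and muscle transcripts were high, was the highest NASH array for 6 of the 7 Cd36 probe sets, both as deposited and after normalization. The exception was rc_AA946368_at, for which it was the lowest after normalization and NASH 3 the lowest as deposited. Without NASH 2 the 7 differences ran from 1.42 to 2.77. Macrophages and endothelial cells also carry CD36. Of 8 listed macrophage markers 4 were measured, and of 7 endothelial markers 4. The summed deposited signal of the macrophage markers ran from 527 to 745 in Control and from 566 to 719 in NASH. That of the endothelial markers ran from 115 to 135 and from 111 to 161, so both overlapped between the diets. The instrument's wash record was filled for 4 arrays (Control 1, Control 3, NASH 1 and NASH 2) and blank for Control 2 and NASH 3. In those 4 the recorded hybridization entries separate the Control from the NASH arrays, so that entry and diet cannot be told apart there. The Cd36 differences ran from 0.98 to 3.27 within the 4, and from 1.04 to 2.63 when NASH 3 was set against Control 2.

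In the limma fit over 5244 probe sets, 7 passed a Benjamini-Hochberg adjusted p of 0.05. Among them were 3 of the 13 probe sets described here, AB005743_g_at, AF072411_at and AF072411_g_at, all Cd36 and all higher in NASH, where 0.133% of all probe sets were called. Since Cd36 was chosen with this comparison known, that count is no support for it. These calls changed with the arrays and the settings. With Control 1, Control 2, Control 3, NASH 1 or NASH 3 left out no Cd36 probe set was called, without NASH 2 only AF072411_at was, and with dim probe sets kept in the test none was. With the wash entry as a covariate or an offset of 1 the call was AF072411_at alone, and without an intensity trend AB005743_g_at and AF072411_at were called. The differences themselves stayed between 1.05 and 3.19 in the 6 fits that left out 1 array.

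Slc27a2, a very long-chain acyl-CoA synthetase also known as the fatty acid transport protein FATP2, overlapped between the groups. Its probe set D85100_at read 1443, 1339 and 1125 in Control 1, 2 and 3 and 2222, 1250 and 1738 in NASH 1, 2 and 3. NASH 1 and NASH 3 were above all Control arrays and NASH 2 was within their range. The difference was 0.55 ± 0.20 on the log2 scale, or 1.47-fold, and was not called. It was 0.72 without NASH 2 and 0.86 without both NASH 2 and Control 2.

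Fabp1, the liver fatty acid binding protein and an abundant cytosolic protein of hepatocytes, differed little. V01235_at read 6633, 3611 and 5607 in Control and 6041, 4956 and 4844 in NASH, so that the deposited signals overlapped and their means had a ratio of 0.999. After quantile normalization the 3 NASH arrays, 12.42 to 12.52 on the log2 scale, lay just above the 3 Control arrays, 11.98 to 12.37, with a difference of 0.26 ± 0.12 or 1.20-fold. Without scaling between arrays the difference was 0.04, where the median of all probe sets tested was −0.17 (−0.02 after quantile normalization), so that relative to that median it was 0.21. Control 2 was the lowest array, and without it the normalized difference was 0.14.

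Fabp5, a binding protein of skin, fat cells and macrophages that is usually low in liver, was the one gene of the 6 with a lower normalized mean in NASH. S69874_s_at read 422, 73.7 and 379 in Control 1, 2 and 3 and 53.1, 83.3 and 22.6 in NASH 1, 2 and 3. Control 1 and Control 3 were far above the rest, while Control 2 fell among the NASH arrays and below NASH 2, so the groups overlapped. The normalized means were 7.73 ± 1.30 in Control and 5.73 ± 0.67 in NASH on the log2 scale (SD, n = 3 each), a difference of −2.004 ± 0.62, or 4.01-fold lower in NASH, that was not called. Leaving out 1 array gave −2.80 (without Control 2) to −1.59 (without Control 3). Without both Control 2 and NASH 2 it was −3.20, and this probe set was then among the 16 called of all. Those were the lowest Control and the highest NASH array for it, and 2 arrays per group were left. The call was made under no other setting, and Fabp5 was chosen with this comparison known, so it is no support for a difference. By wash record the difference was −2.45 in the 4 arrays with one and −1.18 from Control 2 to NASH 3. Control 2 was also the array with the highest clock output sum, and NASH 2 the one with fat transcripts, whose part in these values was not tested.

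Fabp7, the brain-type binding protein of glia, is known to be made in rodent liver and to cycle over the day. U02096_at read 473, 205 and 188 in Control and 318, 273 and 848 in NASH. NASH 3 was the highest array, Control 1 the next, and the other 4 lay from 188 to 318. The difference of 0.82 ± 0.54 rested on that array, being 0.17 without NASH 3. Of 5 glial markers 2 were measured, with summed deposited signals of 8.65 in NASH 3 and 7.78 to 17.3 in the other arrays. The clock output sum of NASH 3, 155, was the lowest of the 6 arrays, but so was its trimmed mean signal, 73.6. Since these sums are not scaled between arrays, that rank cannot be told apart from the brightness of the array. The highest clock output sum, that of Control 2, went with a Fabp7 signal of 205.

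Scp2 codes for sterol carrier protein 2 and for a longer peroxisomal thiolase that contains it. Its brighter probe set M62763complete_seq_at read 986, 607 and 929 in Control and 1122, 684 and 682 in NASH. NASH 1 was the highest and Control 2 the lowest, and the groups overlapped. The difference was 0.15 ± 0.18 (0.05 without Control 2), and −0.03 without scaling between arrays, which is 0.14 relative to the median of all probe sets. M58287_s_at read 224, 134 and 139 in Control and 254, 185 and 151 in NASH, with a difference of 0.38 ± 0.21. Its normalized groups were apart by 0.02 on the log2 scale, while the deposited signals overlapped.

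**Figure D3:**
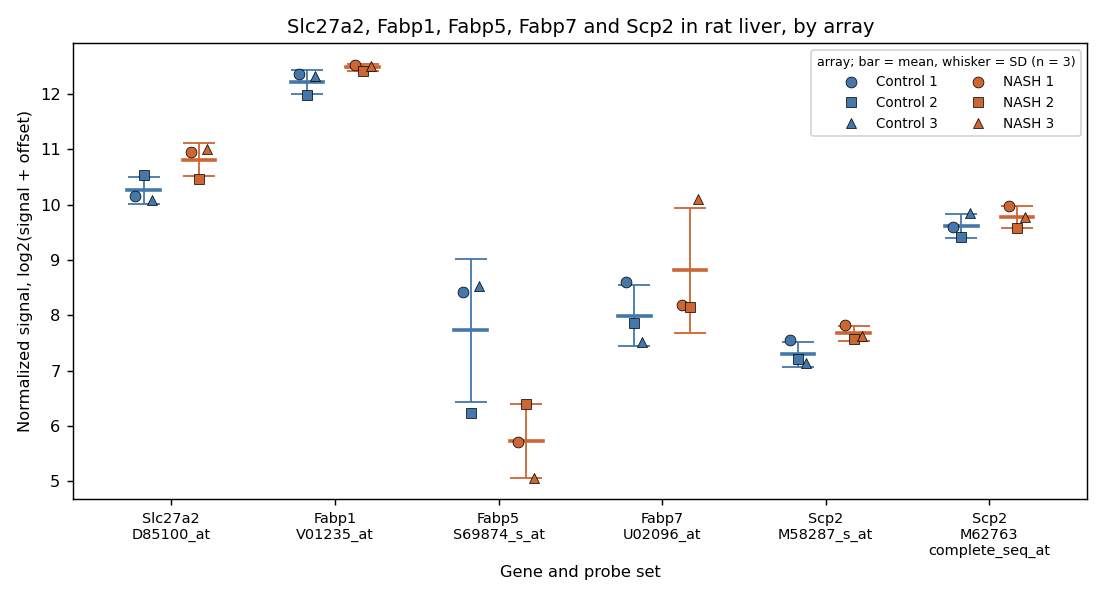
Normalized signal, log2(signal + offset), of the probe sets for Slc27a2, Fabp1, Fabp5, Fabp7 and Scp2 in each array, with group means and SDs (n = 3). For Fabp5, Control 1 and Control 3 (8.42 and 8.53) lie above the other 4 arrays, and for Fabp7, NASH 3 (10.11) lies above the other 5.

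Over the 13 probe sets, 12 had a higher and 1 a lower normalized mean in NASH. All 3 NASH arrays lay above all 3 Control arrays for 9 of them (7 Cd36, Fabp1 and M58287_s_at of Scp2), where 6.54% of all probe sets tested did. All 3 lay below for 0 of the 13 (7.76% of all tested). The members were chosen with this comparison known, and 7 of the 9 are probe sets of Cd36, so these counts are no support for a difference. All 13 passed the filter on dim probe sets, AB005743_g_at and AB005743_at only through their NASH values. Within the binding proteins, Fabp1 and Scp2 moved by less than 0.40 on the log2 scale, while Fabp5 and Fabp7 had the widest spread within a group. The range was 2.30 for Fabp5 in Control and 1.96 for Fabp7 in NASH, against at most 1.60 for any other member.

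**Figure D4:**
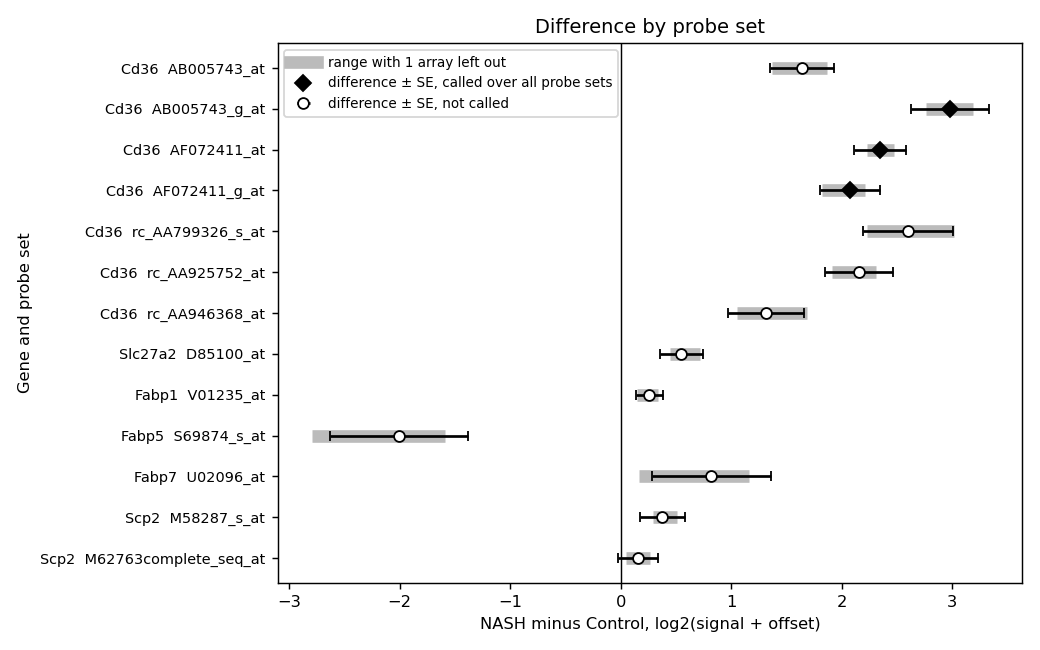
NASH minus Control on the log2(signal + offset) scale for the 13 probe sets, as points with standard errors (n = 3 per group), and as gray bars the range with 1 array left out. The Cd36 probe sets run from 1.32 to 2.98, Fabp5 lies at −2.004, and the other genes from 0.15 to 0.82.

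Other genes of lipid handling were followed in 5 lists, each gene by its brightest probe set with 1 symbol. Of 83 listed genes 54 were on the array and 45 above the filter, of which 31 were higher and 14 lower in NASH, with a median difference of 0.71 against −0.02 for all probe sets tested. By limma, 1 of the 45 was called higher and 0 lower, where 0.0953% and 0.0381% of all were.

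Among the other binding proteins, 3 of 5 were higher and 2 lower, with a median difference of 0.31 and 0 called. Fabp3, the heart and muscle type, read 392 in NASH 2 and 6.26 to 18.0 elsewhere. Its difference was 1.52 ± 1.25, and −0.17 without NASH 2. Fabp4, the fat cell type, was below the filter and read 1044 in NASH 2 against 0.800 to 4.47 elsewhere. Fabp2, the intestinal type, differed by 0.81 ± 0.61 (0.27 to 1.31 with 1 array left out) and Fabp6, the bile acid binding type, by 0.31 ± 0.17 (0.20 to 0.40). Dbi, the acyl-CoA binding protein, differed by −0.03 ± 0.23 (−0.24 to 0.13) and Rbp4, the plasma retinol carrier, by less than its standard error of 0.10.

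Of the other proteins of uptake and activation, 5 of 10 were higher and 5 lower, with a median of −0.05 and 0 called. The lipoprotein lipase Lpl differed by 1.22 ± 0.82, and by 0.10 without NASH 2. The acyl-CoA synthetase Acsl3 differed by 1.01 ± 0.29 (adjusted p = 0.452 by limma) and Scarb1, a lipoprotein receptor of the CD36 family, by 0.71 ± 0.28 (adjusted p = 0.589 by limma), or by 0.43 without Control 2. Got2, a mitochondrial transaminase also described as a plasma membrane fatty acid binding protein, differed by −0.73 ± 0.28, or by −0.44 without NASH 2, with another of its probe sets at 0.08. The synthetase Acsl1 differed by −0.49 ± 0.23, or by −0.22 without NASH 2, with its 3 other probe sets from 0.02 to 0.71, and the hepatic lipase Lipc by −0.44 ± 0.22.

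Storage and export genes were higher for 6 of 7, with a median of 0.77 and 0 called. The droplet protein Cidea differed by 2.17 ± 0.62 (adjusted p = 0.452 by limma), or by 1.43 without NASH 2. The droplet coat protein Plin2 differed by 1.10 ± 0.44 (adjusted p = 0.594 by limma), or by 0.53 without Control 2. Another Plin2 probe set differed by 0.29 ± 0.28, and its groups overlapped. The hormone-sensitive lipase Lipe differed by 1.13 ± 0.58, and by 0.37 without NASH 2. Dgat1, which makes triglyceride, differed by −0.02 ± 0.25 (−0.17 to 0.20 with 1 array left out). Of the regulators, 2 of 7 were higher and 5 lower, with a median of −0.34 and 0 called. The receptors Ppara and Nr1h2 (LXR beta) differed by −0.61 ± 0.37 and −0.45 ± 0.24 and the factor Srebf1 by −0.35 ± 0.20, while Rxra differed by 0.54 ± 0.23 and Hnf4a by 0.06 ± 0.37. With 1 array left out, Ppara ran from −0.91 to −0.36 and Hnf4a from −0.30 to 0.47. Pparg was below the filter.

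Targets of PPAR alpha were higher for 15 of 16, with a median of 1.33 and 1 called. The called gene was the thioesterase Acot2, at 3.25 ± 0.31 (adjusted p = 0.0225 by limma). A second Acot2 probe set differed by 1.07 (adjusted p = 0.503 by limma). Its paralog Acot1 differed by 3.40 ± 1.12 (2.46 to 4.86 with 1 array left out) and was not called. The Acot1 groups overlapped, with NASH 2 at 18.4 and Control 2 at 28.6 as deposited. The isomerase Eci1 differed by 2.13 ± 0.40 with its brightest probe set, not called. A second Eci1 probe set at 2.62 was called (adjusted p = 0.0356 by limma), and another above the filter was at −0.19. Me1, malic enzyme, differed by −0.01 ± 0.68, and by −0.93 without Control 2. Without NASH 2, 6 of the other lipid genes were called, where 17 of all 5244 probe sets tested were (16 higher and 1 lower).

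**Figure D5:**
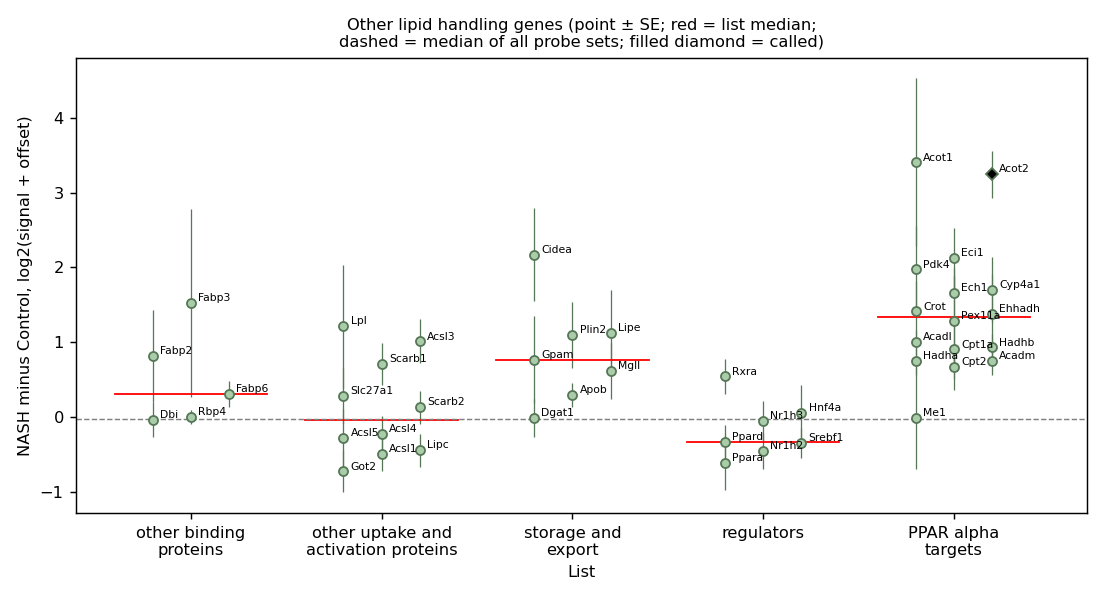
NASH minus Control on the log2(signal + offset) scale with standard errors (n = 3 per group) for the brightest probe set of each gene in 5 lists, red lines marking list medians and the dashed line the median of all probe sets tested (−0.02). Medians run from −0.34 for the regulators to 1.33 for PPAR alpha targets, where Acot2 is the called gene.

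The genes with the most similar values over the 6 arrays were found by Pearson's r with the brightest probe set of each member, among 4291 probe sets with 1 symbol. With so few arrays and so many candidates these are a description only. For Cd36 (AF072411_g_at) they were Acadl, the mitochondrial long-chain acyl-CoA dehydrogenase (r = 0.987), the sulfotransferase Sult2a1 (0.985) and Skida1 (0.970). For Slc27a2 they were the thioesterase Acot1 (r = 0.978), Aifm1 (0.972) and Gde1 (0.968). For Fabp1 they were Stx1a (r = 0.992), Cyb5b (0.990) and Pisd (0.986). Those nearest Fabp5 were H2az1 (r = 0.983), Lipc (0.981) and Rrbp1 (0.970). Nearest to Fabp7 were Patj (r = 0.970), Slc6a3 (0.969) and Gstt2 (0.948), and to Scp2 Mkrn2 (r = 0.991), Cyb5b (0.986) and Nqo1 (0.964).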

How the data were processed

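Liver RNA of 3 Control and 3 NASH samples was hybridized to 1 array each. The deposited intensities are linear MAS5 signals, with 1 value for each probe set on each array. MAS5 is named, without a version, per the submitters' processing notes. Its scaling target and background settings are not stated there, and detection calls were not used here. Array type, tissue and wash entries come from the instrument records, per the file headers. Groups came from sample titles.

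From these values, R 4.3.3 with limma 3.58.1 quantile normalized the arrays, added an offset of 2.21 (the 10th percentile), took log2, left out 59 array controls and tested the 5244 of 8740 probe sets above the 40th percentile of mean log2. The fit was lmFit and eBayes with an intensity trend and no covariate (4 residual and 3.90 prior degrees of freedom), called at a Benjamini-Hochberg adjusted p under 0.05, and was tested on simulated data. The number of arrays limits the precision. The platform annotation gave 1 symbol for 7006 probe sets, several for 308 and none for 1426. Promoters are from RefSeq (GRCr8). The named genes were the members, those called and the 3 largest differences of each sign in each list, and the 3 most similar genes. The members, lists and settings were chosen with earlier results of these data known. Alternatives covered scaling, offset, filter, trend, array weights, blocks and arrays left out.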

Additional observations from a re-analysis of the deposited data

How the results depend on the processing

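Fits under 18 alternatives were compared by the number of probe sets called over all (7), among the 13 members (3) and among other lipid handling genes (1). Without scaling between arrays they were 14 (8 higher and 6 lower, against 5 and 2), 5 and 1; with an offset of 1, 5, 1 and 1; without a filter on dim probe sets, 0, 0 and 0 by limma (633 at an unadjusted p under 0.05); without an intensity trend, 3, 2 and 1; with array weights, 18, 4 and 4. With the replicate number as a block they were 1, 0 and 0. The labels do not say that equal numbers mark pairs. The deviations of same-numbered arrays from their group means correlated at 0.05, −0.02 and 0.07, and Control 2 correlated best with NASH 1 (0.08). With 3 arrays per group these values cannot settle whether the arrays were paired. With the wash record blocked the numbers were 3, 1 and 1. Leaving out 1 array gave 0 to 17 over all, 0 to 1 among members and 0 to 6 among other lipid genes. Without both Control 2 and NASH 2 they were 16, 2 and 6, and in the 4 arrays that have a wash record 1, 0 and 0. The causes were not tested. Of 234 member differences under these alternatives, 1 turned sign (M62763complete_seq_at of Scp2, without scaling) and 6 moved by more than the SD between arrays. Signals near the offset limit the size of AB005743_g_at and AB005743_at. The difference of rc_AA799326_s_at also varied with the offset, from 2.68 at 1 to 2.01 at 16. Having 3 arrays per group limits every call.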
